A study of Mus musculus with 61 samples.

Results

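Transcripts of the c-Jun N-terminal kinases (JNK) and of their direct activators were followed in single cells of the neonatal mouse ovary. The 5 genes, of 23927 gene rows in the count table, were chosen by name for their place in the cascade. Earlier results of these data were known when they were chosen. They are the 3 genes of the JNK family, Mapk8 (which encodes JNK1), Mapk9 (JNK2) and Mapk10 (JNK3), and the 2 kinases directly above them, Map2k4 (MKK4) and Map2k7 (MKK7). The cells came from ovaries of wild-type CD-1 mice, an outbred stock, at postnatal day 5, taken 6 hours after an intraperitoneal injection. Each library is labelled as 1 oocyte or 1 granulosa cell, the somatic cell type that encloses the oocyte. The groups were 16 control oocytes and 16 control granulosa libraries from animals given solvent (vehicle in the labels), and 16 doxorubicin oocytes and 13 doxorubicin granulosa libraries from animals given doxorubicin, a cancer drug that damages DNA. The dose is written as 10 mg/kb, which is not a unit of dose, so the dose is uncertain.

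JNK belongs to the mitogen-activated protein kinases, which are switched on by stress signals passed down a chain of kinases. A MAP3 kinase phosphorylates MKK4 or MKK7, and these phosphorylate JNK on a threonine and a tyrosine that are separated by a proline. MKK7 acts on JNK alone, while MKK4 also acts on p38 kinases. JNK1 and JNK2 are made in most tissues, and JNK3 is best known from the nervous system. Active JNK phosphorylates the transcription factor c-Jun and several regulators of cell death. The series as a whole asks about JNK and the damage that cancer drugs do to the ovary, and the comparisons here ask which genes of the family each cell type transcribes and how their levels differ after the drug.

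The coding stretch around the sites at which these kinases are switched on is shown first. It shows how alike the members are in the very part that makes them 1 family. Reads can be told apart between members wherever their transcripts differ, not in this stretch alone. The sequences are written 5′ to 3′ from coding transcripts of GENCODE M21 (build GRCm38) and run in the direction of transcription. In the 3 kinases the capitals mark the codons of threonine, proline and tyrosine, and 24 bases of coding sequence stand on either side.
Mapk8: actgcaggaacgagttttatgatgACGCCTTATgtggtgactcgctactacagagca
Mapk9: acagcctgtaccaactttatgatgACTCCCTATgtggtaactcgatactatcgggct
Mapk10: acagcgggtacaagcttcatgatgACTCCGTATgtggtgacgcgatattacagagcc
In the 2 activators the capitals run from the codon of the serine to that of the threonine that MAP3 kinases phosphorylate, again with 24 bases on either side.
Map2k4: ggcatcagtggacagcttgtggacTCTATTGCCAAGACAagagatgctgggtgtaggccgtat
Map2k7: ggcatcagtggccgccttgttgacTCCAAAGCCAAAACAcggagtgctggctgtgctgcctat

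Within this window of 57 bases, Mapk8 and Mapk9 share 42 bases, Mapk8 and Mapk10 share 45, and Mapk9 and Mapk10 share 44. Over the aligned coding sequences, 76.3% of bases were identical between Mapk8 and Mapk9, 77.4% between Mapk8 and Mapk10, and 77.9% between Mapk9 and Mapk10. Map2k4 and Map2k7 had 63.8% of bases in common. The longest run of identical bases was 27 among the kinases, between Mapk8 and Mapk10, and 12 between the activators. No word of 50 bases was shared by any of these 4 pairs. The length of the reads is not given in the sources used here. The window stands in every annotated coding transcript of Mapk8 (5 of 5), Mapk9 (7 of 7), Mapk10 (7 of 7) and Map2k7 (8 of 8), and in 2 of 4 of Map2k4. The counts are given per gene and do not separate splice forms.

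The genes lie apart in the genome. On GRCm38, Mapk8 spans chr14:33377898-33447158 on the minus strand, Mapk9 chr11:49846751-49886421 on the plus strand and Mapk10 chr5:102907948-103211334 on the minus strand. Map2k4 spans chr11:65688243-65788297 on the minus strand and Map2k7 chr8:4238740-4247897 on the plus strand. The annotation has another gene model, Gm49320, over Map2k7 on the same strand, and 16 of the 44 nonzero Map2k7 values were not whole numbers (tolerance 0.01), against 3 of 60 for Mapk9 and none for the other members. Gm49320 has a row of its own, with 2.55 CPM in the oocytes of controls and 1.19 after the drug, and with 0.651 CPM in the granulosa libraries of controls and 1.81 after the drug. How its reads were divided from those of Map2k7 is not given in the sources used here, so the Map2k7 level is uncertain.

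Libraries held between 6834594 and 31262609 counts. Levels are counts of a gene per 1000000 counts (CPM), from the counts summed over the cells of a group and the summed totals. No animal is named for any cell, so each group counts as 1 sample, no difference was tested, and the 95% intervals of levels and ratios cover counting error alone, and are too narrow because amplified reads without molecular identifiers are not independent. Those of shares of cells treat the cells as independent draws, which is not known here. Oocyte markers (19 genes with a row) summed to more than granulosa markers (20 genes) in all 32 oocytes. In the granulosa libraries the order went against the label in 5 of 16 controls and in 8 of 13 after doxorubicin. The summed oocyte markers ranged from 358 to 15428 CPM (median 1464) in control granulosa and from 354 to 44585 CPM (median 9293) in doxorubicin granulosa, and stroma markers were above granulosa markers in 6 and 2 libraries. Blood and immune markers (7 genes) ranged up to 437 CPM in control and up to 33378 CPM in doxorubicin granulosa, and smooth muscle and pericyte markers (6 genes) up to 7061 and up to 1062 CPM; the part of these cell types in the results was not tested. For this reason the somatic cells are called granulosa libraries, and values are also given without those whose granulosa markers were lower than their oocyte markers. Of 8 known p53 targets, 6 of 7 with enough reads were at least 2-fold higher in doxorubicin oocytes and 8 of 8 in doxorubicin granulosa. Over all genes, 6.30% and 20.6% were higher in these comparisons. Cdkn1a, a cell-cycle inhibitor, was 3.06 and 6.42 higher on the log2 scale.

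Mapk9 was the main JNK transcript of the oocyte. Its level was 82.8 CPM in control oocytes (95% Poisson interval 81.6 to 84.1), where single cells ranged from 39.9 to 146 CPM with a median of 81.0. Doxorubicin oocytes stood at 82.3 CPM, with cells from 34.4 to 197 CPM and a median of 75.8. No oocyte was without Mapk9, 2 doxorubicin oocytes were above the highest control and 1 was below the lowest, and the rest overlapped. The coefficient of variation over cells was 0.34 in controls and 0.50 after the drug. The log2 ratio of doxorubicin over control oocytes was -0.01 (-0.04 to 0.02), and it lay between -0.15 and 0.07 when any 1 cell was left out.

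Mapk8 was present in every oocyte at a low level. Control oocytes had 7.91 CPM (7.52 to 8.31), with cells from 1.58 to 11.7 CPM and a median of 8.25. Doxorubicin oocytes had 11.5 CPM (11.03 to 12.03), with cells from 2.58 to 28.9 CPM and a median of 10.2. The highest cell was doxorubicin oocyte 5. The groups overlapped, but 12 of 16 doxorubicin oocytes were above the control median and 5 were above the highest control. The log2 ratio was 0.54 (0.45 to 0.64), or 1.46-fold, and lay between 0.35 and 0.68 with 1 cell left out. The difference of the cells' medians was smaller, at 0.28 on the log2(CPM + 1) scale. Granulosa markers summed to 200 CPM or more in 5 control and 4 doxorubicin oocytes. Among the 9 control and 10 doxorubicin oocytes in which granulosa and stroma markers were each under that sum, the Mapk8 ratio was 1.21, larger than over all cells.

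Mapk10 split the oocytes. Control oocytes had 18.3 CPM as a group, with cells from 0 to 63.6 CPM and a median of 13.3, and doxorubicin oocytes had 19.2 CPM, with cells from 0 to 64.4 CPM and a median of 12.05. In 3 control and 5 doxorubicin oocytes there was no read of Mapk10, although Mapk9 had at least 5 reads in all of them. Among the cells with at least 5 reads, 12 and 11 of 16, the median was 16.2 and 22.2 CPM. The log2 ratio was 0.07 (0.00 to 0.14), and it moved between -0.18 and 0.39 with 1 cell left out, so its sign was set by single cells. The coefficient of variation, 1.13 in controls and 1.10 after the drug, was the highest of the 5 members in oocytes.

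Map2k4 was as even as Mapk9. Control oocytes had 80.3 CPM, with cells from 34.0 to 141 CPM and a median of 81.4, and doxorubicin oocytes had 81.2 CPM, with cells from 3.82 to 149 CPM and a median of 74.0. Doxorubicin oocyte 9 was the low cell, and the other 15 doxorubicin oocytes were above 50 CPM. The log2 ratio was 0.02 (-0.02 to 0.05; -0.07 to 0.09 with 1 cell left out).

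Per length, Map2k7 was lower than Map2k4 in all oocytes but doxorubicin oocyte 9. Control oocytes had 16.5 CPM, with cells from 5.43 to 44.3 CPM and a median of 18.3, and doxorubicin oocytes had 14.1 CPM, with cells from 0 to 24.99 CPM and a median of 13.6. Doxorubicin oocyte 12 held no read of Map2k7, and 10 of the 16 doxorubicin oocytes were at or below the control median. The log2 ratio was -0.23 (-0.31 to -0.15; -0.33 to -0.08 with 1 cell left out).

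**Figure D1:**
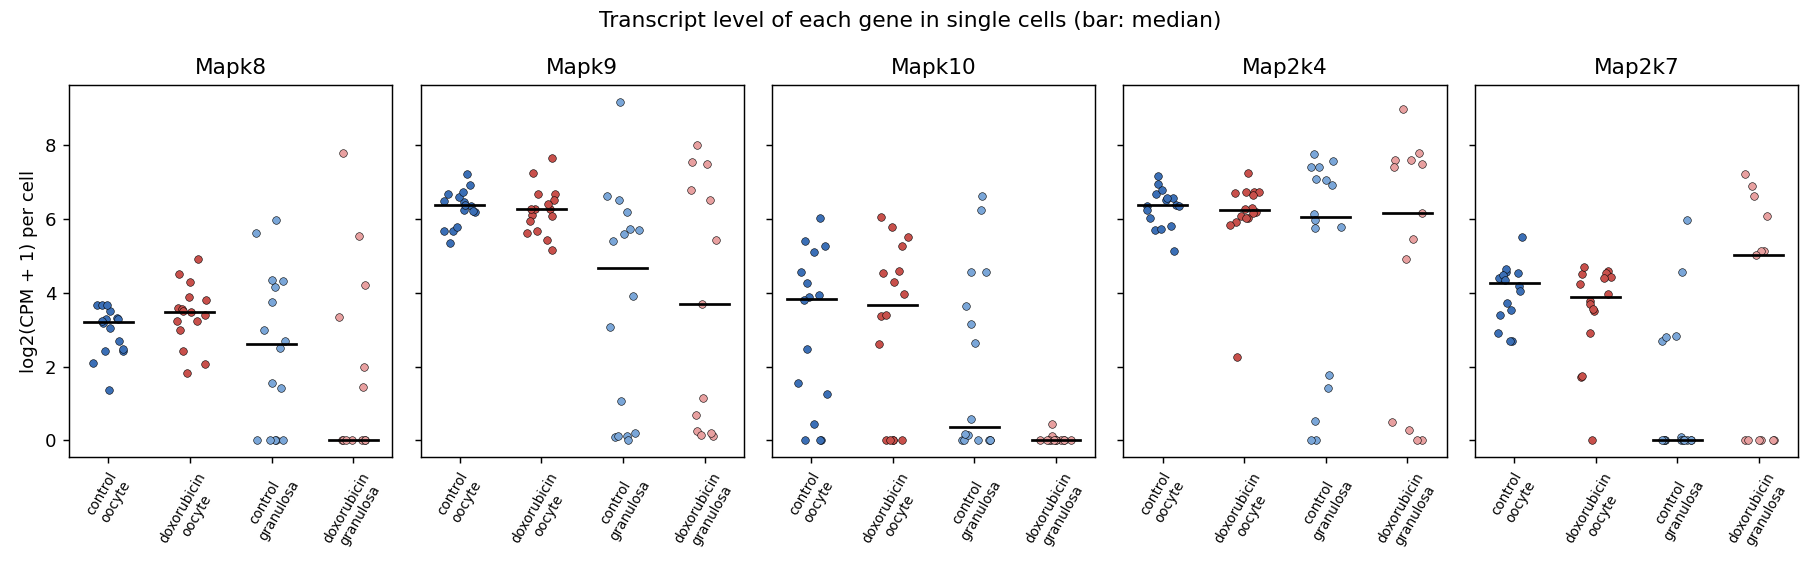
Level of each of the 5 genes in each of the 61 libraries, as log2(CPM + 1) on a shared vertical axis, by group along the horizontal axis; points are cells and bars are medians. Oocytes of both groups form narrow bands for Mapk9 and Map2k4, while granulosa libraries spread from 0 to 571 CPM for Mapk9 and from 0 to 501 CPM for Map2k4.

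None of the 5 members was at least 2-fold apart between doxorubicin and control oocytes. Over the 11119 genes that reached 5 CPM in one group or both, 8.75% were at least 2-fold apart, 6.30% of all these genes higher and 2.45% lower after the drug, and the median log2 ratio of all genes was 0.01. With so small a share over all genes, the count of 0 among 5 is no result about the members.

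Granulosa libraries held the genes at very unequal levels from cell to cell. Mapk9 had 67.7 CPM in control granulosa, with cells from 0 to 571 CPM and a median of 27.6, and 67.4 CPM in doxorubicin granulosa, with cells from 0.0882 to 255 CPM and a median of 11.97. Control granulosa 3 alone held 58.2% of the control reads, and 11 of 16 and 9 of 13 libraries had at least 5 reads. The groups overlapped over most of their range. The log2 ratio of -0.01 became 1.15 without control granulosa 3, the medians differed by -0.96, and the ratio was -0.69 among the libraries whose own markers were higher than oocyte markers. No direction is given for Mapk9 in granulosa.

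Mapk8 in granulosa turned on 1 library. Control granulosa had 11.7 CPM, with cells from 0 to 60.97 CPM and a median of 5.07, and doxorubicin granulosa had 24.4 CPM, with cells from 0 to 219 CPM and a median of 0. Doxorubicin granulosa 9 held 74.3% of the reads of its group, while 7 of the 13 libraries held none. The log2 ratio was 1.06 (0.98 to 1.14) with all cells and -0.78 without doxorubicin granulosa 9, and the median difference was -2.60. In that library oocyte markers summed to 9293 CPM and granulosa markers to 2106 CPM. Among the 11 control and 5 doxorubicin libraries whose granulosa markers were higher than oocyte markers, the ratio was -1.95. Of these 5, number 13 had 8769 CPM of stroma markers against 1546 CPM of granulosa markers, and number 15 had 33378 CPM of blood and immune markers against 9327 CPM. With granulosa markers above both oocyte and stroma markers, in 10 and 4 libraries, it was -5.09. No direction is therefore given for Mapk8 in granulosa.

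Mapk10 was nearly absent from doxorubicin granulosa. Control granulosa had 17.4 CPM, with cells from 0 to 96.4 CPM and a median of 0.305, and 8 of 16 libraries had at least 5 reads. Doxorubicin granulosa had 5 reads in all, 0.0350 CPM, with cells from 0 to 0.353 CPM, and 4 of the 5 reads were in doxorubicin granulosa 7. None of the 13 libraries had 5 reads; if cells are taken as independent draws, this allows up to 24.7% of libraries to reach 5 reads (exact binomial), and it sets no limit on cells that hold the transcript. The group level was 497-fold lower, a log2 ratio of -8.96 (-10.58 to -7.73), with values between -9.58 and -8.32 when 1 cell was left out. The lower value was without doxorubicin granulosa 7 and the higher one without control granulosa 2. The cell ranges still overlapped, since 6 control libraries held no read.

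Control granulosa 2 and 10 held most of the Mapk10 reads of the controls, at 96.4 and 74.8 CPM. Nerve and glia markers (6 genes) were at 0 in both of these libraries. In control granulosa 2 stroma markers summed to 8526 CPM against 549 CPM of granulosa markers, and in control granulosa 10 granulosa markers were the higher, at 2991 CPM against 368 CPM of stroma markers. Among libraries with their own markers higher, Mapk10 had 15.02 CPM in the 11 controls, 6 of which had at least 5 reads, and no read in the 5 after doxorubicin. The ratio was -8.17 in these libraries, with the doxorubicin group set to 3 counts for the whole group, so the level was lower by at least that amount. In oocytes, where Mapk10 was also uneven, no such difference between the groups was seen, and the difference between the 2 cell types in this respect was not tested.

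At a minimum of 5 reads, Map2k4 was the most widely detected member in control granulosa. At 1 read Mapk9 was found in 15 libraries and Map2k4 in 14. Map2k4 had 87.6 CPM there, with cells from 0 to 213 CPM and a median of 65.2. In doxorubicin granulosa it had 127 CPM, with cells from 0 to 501 CPM and a median of 69.7. At least 5 reads were found in 14 of 16 and 9 of 13 libraries, and doxorubicin granulosa 14 was the highest. The log2 ratio of 0.53 (0.50 to 0.56) was 0.06 without doxorubicin granulosa 14, and the medians differed by 0.10, while it was 1.56 among libraries whose own markers were the higher.

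Map2k7 was at least 2-fold higher in doxorubicin than in control granulosa under every alternative tried, whether by scaling, by cell medians, by marker subsets or by leaving out cells. Control granulosa had 6.40 CPM, with cells from 0 to 61.7 CPM and a median of 0, and control granulosa 11 held 58.0% of the reads. Doxorubicin granulosa had 41.8 CPM, with cells from 0 to 147 CPM and a median of 31.7. At least 5 reads were found in 5 of 16 control and 7 of 13 doxorubicin libraries, and 4 of the doxorubicin libraries were above the highest control. Libraries without a read were present on both sides, 10 controls and 6 after the drug, so the groups overlapped. The group level was 6.54-fold higher, a log2 ratio of 2.71 (2.62 to 2.80), with a range of 2.34 to 3.87 when 1 cell was left out, the higher value without control granulosa 11.

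Oocyte markers differed between the granulosa groups as well, so Map2k7 is also given by their level. In the 5 control granulosa libraries with oocyte markers higher than granulosa markers, Map2k7 had 0.0177 CPM and in no library 5 reads. In the 8 such doxorubicin libraries it had 51.2 CPM, with 4 of 8 at 5 reads or more. In libraries with their own markers higher, it had 9.32 CPM in the 11 controls and 28.0 CPM in the 5 after the drug, a log2 ratio of 1.59 in place of 2.71. The part of oocyte transcripts in the Map2k7 difference was not tested.

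**Figure D2:**
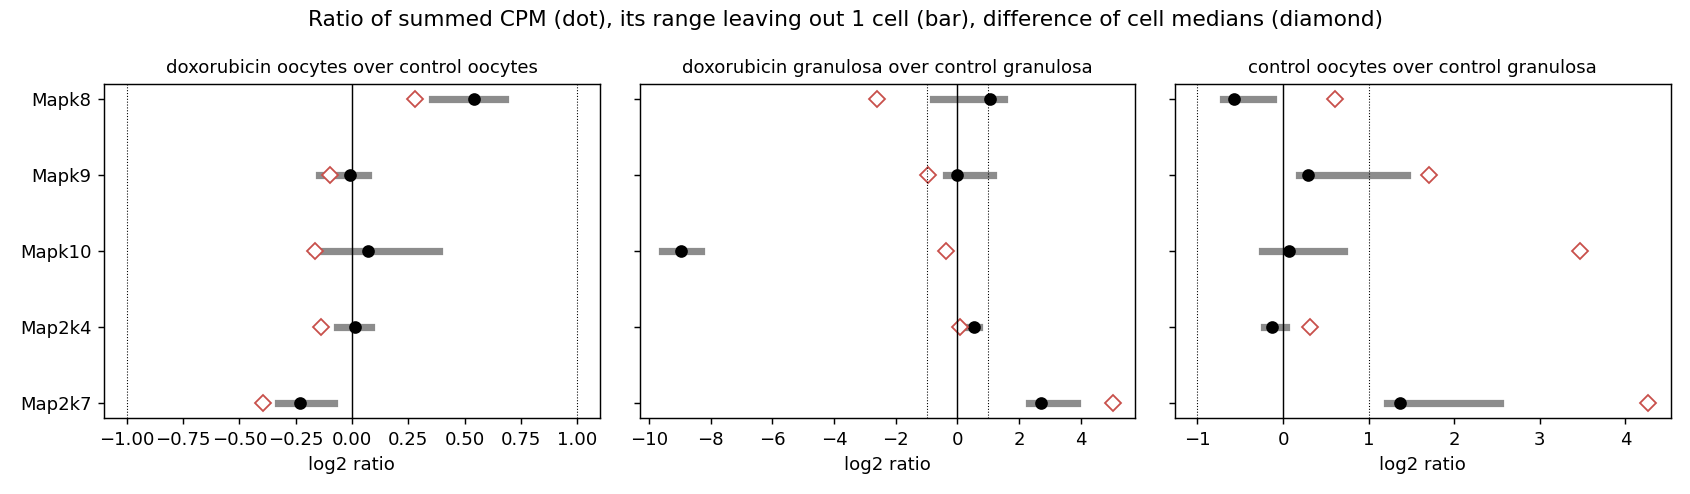
Log2 ratio of summed CPM (dots) for the 5 genes in 3 comparisons, with the range over leaving out 1 cell (grey bars) and the difference of the cells' medians on the log2(CPM + 1) scale (open diamonds); dotted lines mark a 2-fold difference, and the horizontal scale differs between panels. In granulosa the bar of Mapk8 crosses 0, from -0.78 to 1.51, and those of Mapk10 and Map2k7 do not.

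In granulosa, 3 of the 5 members were at least 2-fold apart with all cells: Map2k7, which was higher after the drug, Mapk10, which was lower, and Mapk8, whose ratio of 1.06 was -0.78 without doxorubicin granulosa 9. Of 12194 genes that reached 5 CPM, 40.6% were at least 2-fold apart, 20.6% of all genes higher and 20% lower, with a median of -0.03. With so large a share over all genes, the members' count is no result about the members as a set, and the ratios describe the single genes.

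Between the control groups the genes differed more in how evenly the cells held them than in group level. The log2 ratios of control oocytes over control granulosa were -0.57 for Mapk8, 0.29 for Mapk9, 0.07 for Mapk10 and -0.12 for Map2k4, all less than 2-fold. The cells' medians differed by 0.61, 1.70, 3.47 and 0.32 in the same order, on the log2(CPM + 1) scale, and by 4.26 for Map2k7. By medians Mapk9 and Mapk10 were thus also more than 2-fold higher in oocytes. Map2k7 was 2.58-fold higher in oocytes, a log2 ratio of 1.37 (1.27 to 1.47), and 2.53 without control granulosa 11. Without control granulosa 3 the ratio of Mapk9 was 1.45, which would make it a second member at least 2-fold apart. All 16 control oocytes were above the granulosa median for both Mapk9 and Map2k7, though that of Map2k7 was 0, so any read passed it. Of 12373 genes, 60.3% were at least 2-fold apart between these groups, 29% of all genes higher in oocytes and 31.3% lower, against 1 of 5 members, Map2k7, which was higher. Without the 5 control granulosa libraries whose oocyte markers were the higher, the ratio of Map2k7 was 0.83, under 2-fold.

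The groups can be ordered by level only in part. Mapk8 ran from doxorubicin granulosa through control granulosa and doxorubicin oocytes to control oocytes, but without doxorubicin granulosa 9 the first of these had 6.84 CPM and was the lowest. For Mapk9 both oocyte groups were above both granulosa groups with all cells, though the 11 control granulosa libraries with own markers higher had 90.7 CPM, and no order is given within a cell type, since the granulosa ratio of -0.01 was 1.15 without control granulosa 3 and the oocyte ratio of -0.01 ranged from -0.15 to 0.07. For Mapk10 doxorubicin granulosa was lowest, and the other 3 groups, between 17.4 and 19.2 CPM, have no order that holds when single cells are left out (-0.18 to 0.39 between the oocyte groups). Map2k4 was highest in doxorubicin granulosa with all cells, but its ratio over control granulosa, 0.53, was 0.06 without doxorubicin granulosa 14. Its other groups have no order that holds when single cells are left out. The ranges were -0.07 to 0.09 between the oocyte groups and -0.23 to 0.03 for control oocytes over control granulosa. Map2k7 was highest in doxorubicin granulosa and lowest in control granulosa. All neighbours in these orders overlapped in the range of their cells. The middle 50% of cells, between the quartiles, did not overlap for 2 neighbouring pairs: Mapk9 in doxorubicin oocytes over control granulosa, and Map2k7 in doxorubicin oocytes over control granulosa.

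To compare the members with each other, levels were divided by the length of the longest protein-coding transcript, which is 5756 bases for Mapk8, 4682 for Mapk9, 7203 for Mapk10, 3695 for Map2k4 and 3525 for Map2k7. Map2k4 was highest in every group, at 21.7 CPM per kb in the oocytes of controls and 22.0 after the drug, and at 23.7 in granulosa libraries of controls and 34.3 after the drug. Mapk9 was next in every group by this length, at 17.7, 17.6, 14.5 and 14.4 CPM per kb in the same order. Mapk8 and Mapk10 were each under 5 CPM per kb by it in all groups. In doxorubicin granulosa this place of Mapk9 did not hold by other lengths, while in the other groups it did. By the median length of coding transcripts Mapk9 had 14.4 CPM per kb there, against 26.3 for Map2k7 and 15.98 for Mapk8. By the length of all exons it had 9.93 against 10.9 for Map2k7. Mapk8 was above 5 CPM per kb in all groups by the median length, at 5.18, 7.54, 7.67 and 15.98.

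Of the JNK transcripts per length, Mapk9 made up 81.9% in the oocytes of controls and 79.0% after the drug, and 76.5% in the granulosa libraries of controls and 77.2% after the drug. In the same order Mapk10 took 11.7%, 11.97%, 12.8% and 0.0260%, and Mapk8 took 6.36%, 8.999%, 10.8% and 22.8%. Without doxorubicin granulosa 9 the last of these was 8.93%. In single cells the cell types were unlike each other. Mapk9 led in 16 of 16 control and 16 of 16 doxorubicin oocytes, with a share between 60.7% and 97.2% in controls and between 49.0% and 97.0% after the drug.

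In granulosa the leading gene changed from library to library. Mapk9 led in 9 of the 15 control libraries with a JNK read, Mapk10 in 4 and Mapk8 in 2. In doxorubicin granulosa Mapk9 led in 10 of 13, Mapk8 in 2 and Mapk10 in 1, and that last library, doxorubicin granulosa 7, had 4 reads of Mapk10 and 1 of Mapk9. Among libraries with at least 20 JNK reads, Mapk9 led in 9, Mapk10 in 3 and Mapk8 in 2 of 14 controls, and Mapk9 in 7 and Mapk8 in 2 of 9 after the drug. Control granulosa 9 and 5 were the controls in which Mapk8 led, at 60.97 and 48.0 CPM, with 1.10 and 0.0875 CPM of Mapk9. The choice of length bears on Mapk8, whose annotated transcripts differ widely. With the median length of coding transcripts, 1528 bases for Mapk8 and 4675 for Mapk9, Mapk8 had 52.6% and Mapk9 47.4% in doxorubicin granulosa, but 26.9% and 73.0% without doxorubicin granulosa 9. By that length Mapk9 had 58.4% and Mapk8 30.98% in control granulosa, but 37.0% and 47.0% without control granulosa 3, and Mapk9 led in every oocyte. Among the 15 control granulosa libraries it led in 7, Mapk8 in 6 and Mapk10 in 2. In the 13 doxorubicin granulosa libraries these numbers were 8, 4 and 1. With no length correction Mapk9 led in 16 of 16 control and 14 of 16 doxorubicin oocytes, and Mapk10 led in the other 2.

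**Figure D3:**
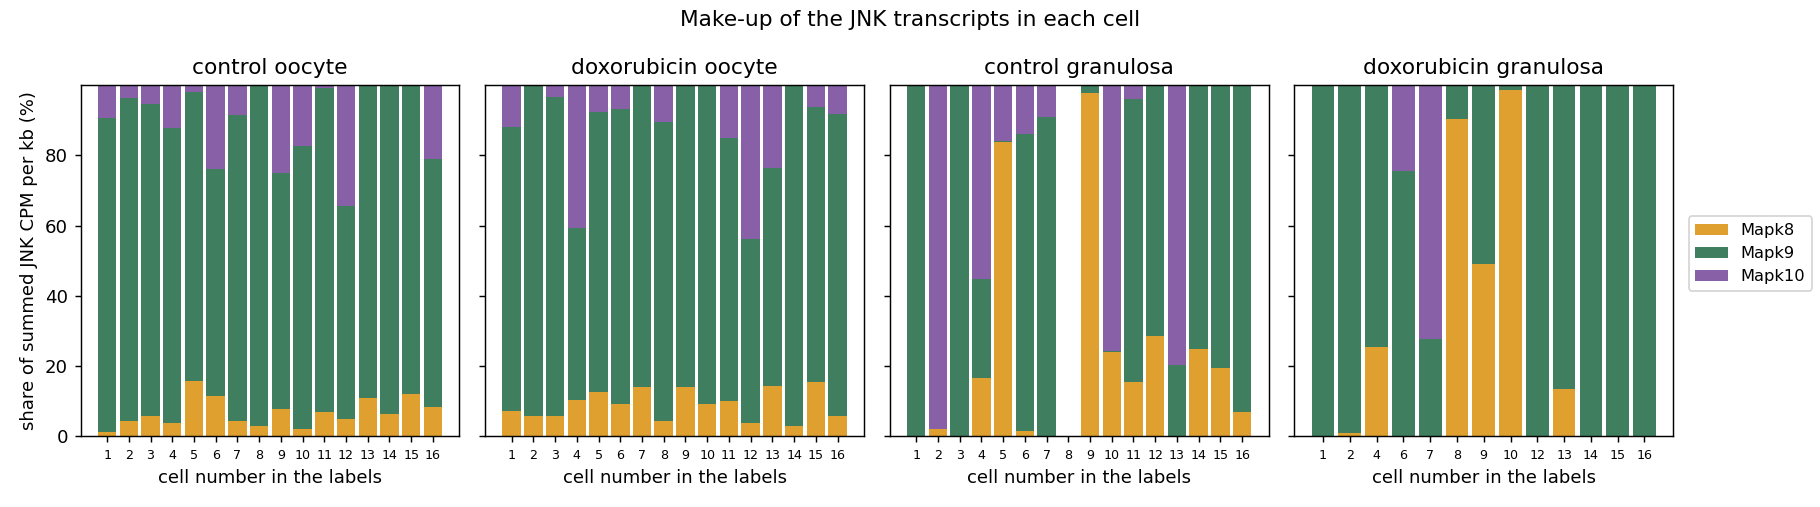
Share of Mapk8, Mapk9 and Mapk10 in the summed JNK CPM per kb of each cell (vertical axis, percent), by group, with the cell numbers of the labels along the horizontal axis. Mapk9 is the largest part in all 32 oocytes, while granulosa bars are often a single gene; control granulosa 8 has no JNK read and no bar.

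Oocytes held the family as a set and granulosa libraries held parts of it. All 5 members had at least 5 reads in 12 control and 10 doxorubicin oocytes, in 1 control granulosa library and in no doxorubicin granulosa library. All 3 JNK genes had at least 5 reads in 12, 11, 3 and 0 cells. Mapk8 and Mapk9 were found together in all 32 oocytes, in 8 of 16 control granulosa and in 4 of 13 doxorubicin granulosa. Both Mapk8 and Mapk9 were missing at that minimum from 2 libraries of each granulosa group. A JNK gene and an activator were found together in all 32 oocytes, in 13 of 16 control granulosa and in 10 of 13 doxorubicin granulosa.

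Such gaps were common to genes of this level in the granulosa libraries. Among genes between 5 and 150 CPM, 67.9% had at least 5 reads in every control oocyte and 59.0% in every doxorubicin oocyte, but 3.87% in every control granulosa library and 5.05% in every doxorubicin one. The median gene of that range was found in 16 of 16, 16 of 16, 8 of 16 and 7 of 13 cells. Set beside it, Mapk10 in oocytes (12 and 11 of 16) was found in fewer cells than the median gene, Map2k4 in granulosa (14 of 16 and 9 of 13) in more, and Map2k7 in control granulosa (5 of 16) in fewer. After every library was thinned to 1000000 counts, at least 1 read was found for Mapk8 in 16, 15, 11 and 6 cells, for Mapk9 in 16, 16, 13 and 10, for Mapk10 in 12, 11, 10 and 0, for Map2k4 in 16, 16, 12 and 10, and for Map2k7 in 16, 15, 5 and 7, in the same order of groups. The minimum differs from that above, so these counts are not set against the earlier ones gene by gene. At equal totals each of the 5 members was found in a smaller share of the granulosa group than of the oocyte group of the same treatment. Map2k4 in granulosa, found in a larger share of control than of doxorubicin libraries at 5 reads, had nearly equal shares here. A cell without a read may still hold the transcript.

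**Figure D4:**
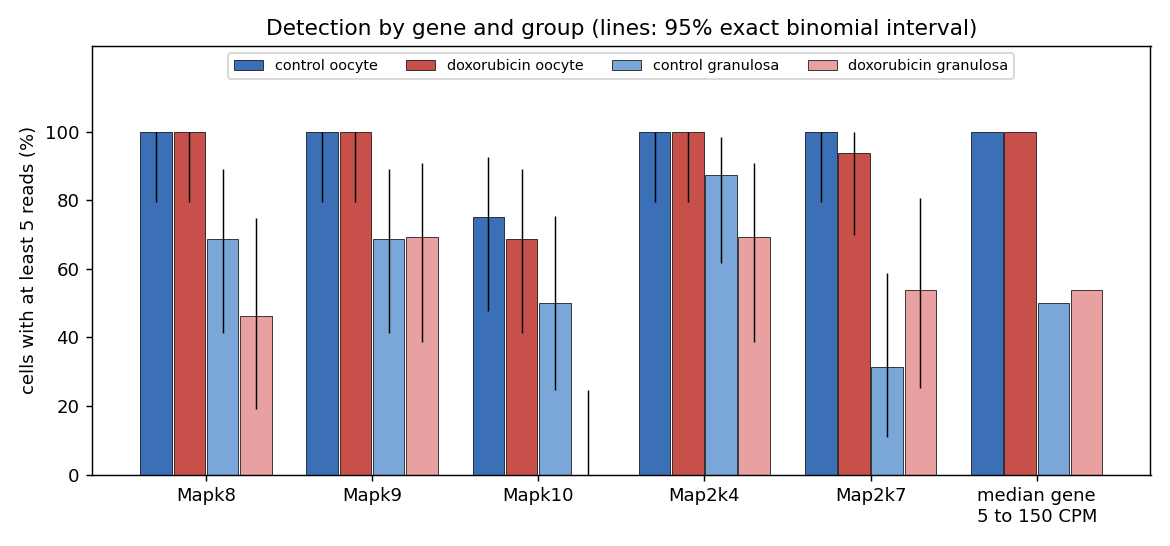
Percent of cells with at least 5 reads (vertical axis, bars) for each gene and group, with 95% exact binomial intervals for the number of cells (lines). The last set of bars is the median gene between 5 and 150 CPM, drawn without intervals. Mapk10 is at 75% and 68.8% in oocytes, 50% in control granulosa and 0 in doxorubicin granulosa.

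Transcripts of the 2 activators were found together in most oocytes and in fewer granulosa libraries. Both had at least 5 reads in 16 of 16 control and 15 of 16 doxorubicin oocytes, and in 5 of 16 control and 4 of 13 doxorubicin granulosa libraries. Map2k4 without Map2k7 was seen in 9 control and 5 doxorubicin granulosa libraries, and Map2k7 without Map2k4 in 3 doxorubicin and 0 control libraries. In those 3, doxorubicin granulosa 4, 7 and 12, Map2k7 had 33.7, 96.8 and 116 CPM, and oocyte markers were above granulosa markers in each. Per length, Map2k4 was 4.64-fold above Map2k7 in the oocytes of controls and 5.50-fold after the drug, and 13.1-fold in the granulosa libraries of controls and 2.89-fold after the drug. Without control granulosa 11 the ratio in the controls was 27.1-fold. Among granulosa libraries whose own markers were higher than oocyte markers it was 7.64-fold in the 11 controls and 7.47-fold in the 5 after the drug, so the contrast between the granulosa groups was not present there. These values without some libraries were chosen after seeing the data. All these folds use the longest transcript, and by the median length of coding transcripts they were larger. By that length Map2k4 had 103 and Map2k7 10.4 CPM per kb in control oocytes, and 104 and 8.86 after the drug. In granulosa libraries they had 112 and 4.03 in controls, and 163 and 26.3 after the drug.

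**Figure D5:**
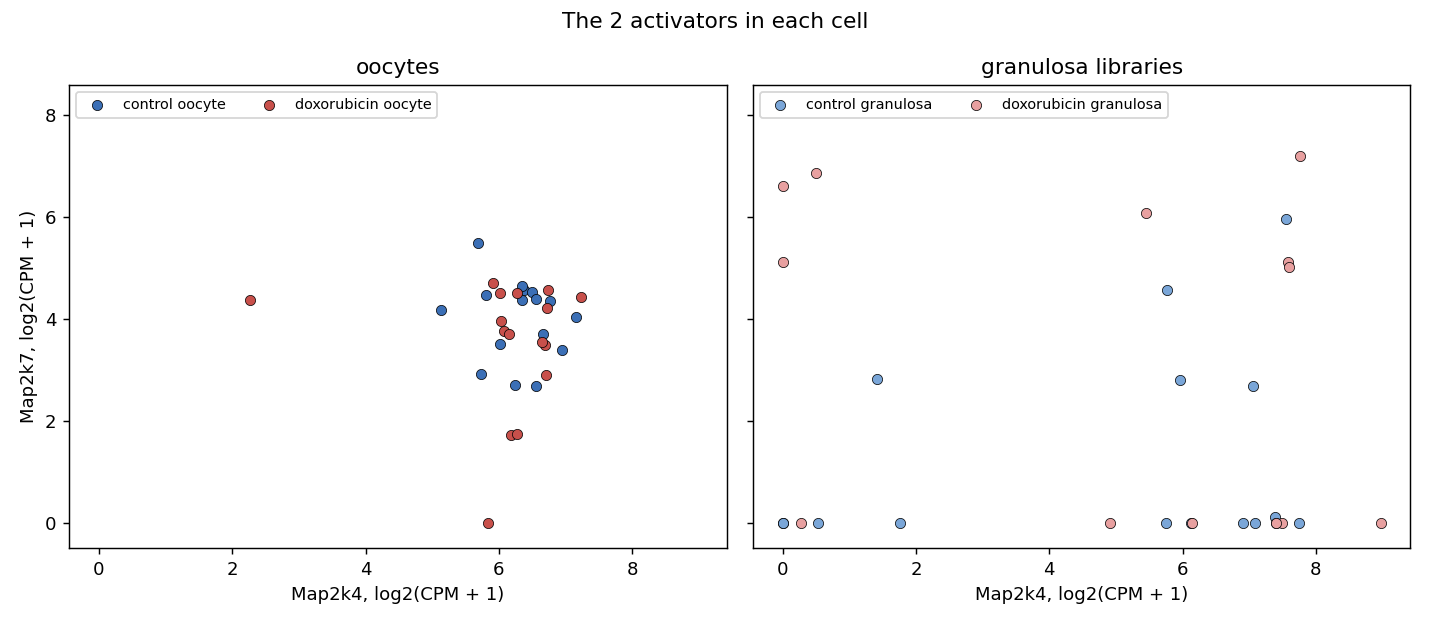
Map2k7 (vertical axis) against Map2k4 (horizontal axis) in each cell, both as log2(CPM + 1), for oocytes (left) and granulosa libraries (right). Most oocytes form 1 cloud, with doxorubicin oocytes 9 and 12 farthest outside it. Doxorubicin oocytes 6 and 16 lie below it, at 2.30 and 2.35 CPM of Map2k7. Granulosa libraries lie along the axes or far from them, with Map2k7 alone in 3 doxorubicin libraries.

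Across the 32 oocytes the members did not vary as 1 unit. The highest rank correlation of CPM between 2 members was 0.34, for Mapk9 and Map2k4, and the lowest was -0.31, for Mapk10 and Map2k7. These are descriptions over cells of 2 treatments whose animals are not named. Among 11883 genes with at least 5 reads in at least 50% of the oocytes, the genes whose levels ranked most like Mapk9 were Add1 (0.63), Clasrp (0.62) and Gal3st2c (0.60), and for Mapk8 they were Uqcrc2 (0.63), Yipf6 (0.62) and Nsmce2 (0.61). For Mapk10 they were Samd12 (0.69), Syne2 (0.66) and Plxna4 (0.64). For Map2k4 they were Nipa1 (0.64), Lrrc3 (0.59) and Letm1 (0.57), and for Map2k7 Mzt1 (0.76), Gm48677 (0.67) and Calm3 (0.66). The highest values among so many genes are high by selection. The rank correlation of each member with total counts over the same cells lay between 0.04 (Mapk10) and 0.26 (Map2k4), and with summed granulosa markers between -0.17 (Mapk9) and 0.10 (Mapk10).

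Above the members stand the MAP3 kinases, which phosphorylate MKK4 and MKK7. Of 14 with enough reads in oocytes, 1 was at least 2-fold higher after the drug, Map3k1 (14.3 against 5.32 CPM), and 1 lower, Map3k10 (4.44 against 8.90 CPM), both named after their values were seen, and the list's median log2 ratio was -0.16. Over all genes 6.30% were higher and 2.45% lower in this comparison, and these shares stand beside each oocyte count of the pathway lists below. In granulosa 1 of 14 was higher and 5 were lower, with a median of -0.24, where 20.6% of all genes were higher and 20% lower. Map3k6, which encodes ASK2, stood at 80.9 CPM after the drug against 8.02 CPM, while Map3k7 (TAK1) stood at 17.5 against 73.2 CPM, Taok2 at 6.74 against 21.3 CPM and Map3k20 (ZAK) at 22.2 against 54.8 CPM. Without 1 library the ratio of Map3k20 changed sign, with a range of -1.63 to 1.87. Control oocytes had 7 of 15 MAP3 kinases higher and 3 lower than control granulosa (29% and 31.3% of all genes), among them Map3k4 at 233 against 42.8 CPM and Map3k6 at 106 against 8.02 CPM.

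Scaffold proteins hold JNK and its activators together. None of 4 was 2-fold apart between the oocyte groups. In granulosa 2 of 5 were higher and 1 was lower after the drug (20.6% and 20% of all genes). Arrb2, a beta-arrestin, was at 38.9 against 1.97 CPM and Mapk8ip3 (JIP3) at 72.3 against 7.92 CPM, and both were also higher in control oocytes, at 38.0 and 50.2 CPM, than in control granulosa. All 5 scaffolds with enough reads differed at least 2-fold between the control groups, as did 60.3% of all genes, 2 higher in oocytes and 3 lower, and Spag9 (JIP4) was at 8.59 against 91.0 CPM.

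Phosphatases remove the phosphates from JNK. In oocytes 2 of 7 were higher after the drug and none lower. Dusp1 was at 43.3 against 10.9 CPM, although 5 reads or more were found in 6 of the 16 doxorubicin cells and in 12 of the 16 controls, and Dusp2 was at 15.2 against 5.45 CPM, named after its value was seen. In granulosa none of 7 was higher and 3 were lower (20.6% and 20% of all genes), with Dusp1 at 267 against 573 CPM, and a log2 ratio of -1.10 that ranged from -3.12 to -0.53 with 1 library left out. The median over the list was -0.08 in oocytes and -0.48 in granulosa.

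Among JNK substrates, 1 of 16 was at least 2-fold higher in doxorubicin oocytes and none lower. It was Trp73, a gene of the p53 family, at 49.0 against 1.56 CPM, with at least 5 reads in 10 of 16 doxorubicin and 3 of 16 control oocytes. Trp63, another gene of that family, was at 91.3 against 97.3 CPM. Jun itself was at 56.6 against 46.4 CPM in oocytes and 1650 against 1202 CPM in granulosa. In granulosa 1 of 15 was higher, Sirt1 at 58.3 against 27.7 CPM, and 2 were lower (20.6% and 20% of all genes). In controls, Jun was at 46.4 CPM in oocytes against 1202 CPM in granulosa and Jund at 24.8 against 354 CPM, among 8 of 15 substrates lower in oocytes, while Trp63, at 97.3 against 13.2 CPM, was the 1 that was higher (31.3% and 29% of all genes).

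The kinases of the neighbouring MAPK branches were at similar levels in both oocyte groups, with none of 11 at least 2-fold apart. In granulosa 4 of 12 were higher and 1 lower after the drug, against 20.6% and 20% of all genes. Mapk14, which encodes p38 alpha and is also a target of MKK4, was at 131 against 39.6 CPM, Map2k1 (MEK1) at 183 against 89.7 CPM, and Mapk7 (ERK5) at 11.4 against 96.8 CPM. Mapk12 had 23.6 CPM, from 2 of 13 doxorubicin libraries, and no read in control granulosa. Against 3 counts for the whole control group this is at least 10.46 higher on the log2 scale in these libraries, and 7.96 without 1 of them. Mapk11, named after its value was seen, was at 15.7 against 0.0111 CPM, with at least 5 reads in 1 of 13 doxorubicin libraries. The direct activator of JNK alone, Map2k7, and Mapk14 thus both stood higher in doxorubicin granulosa than in its control. Of 19 oocyte markers with a row, 17 reached 5 CPM in one granulosa group or both, and these 17 were at least 2-fold higher there. Ddx4 and Lhx8 stayed under that minimum and were lower after the drug, at 0.664 against 1.93 CPM and 0.797 against 1.82 CPM. Control oocytes held them at 269 and 225 CPM. The count of 17 thus leaves out markers that went the other way. The part of the oocyte transcripts was not tested.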

How the data were processed

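Single-cell SMART-seq libraries of 61 cells were analysed. The deposited values are the authors' estimated counts, 1 row per gene and 1 column per cell. Of the nonzero values 20.1% were not whole (tolerance 0.01), and all were rounded. Per the submitters' processing notes, the build was mm10 and Partek, Bowtie2, HISAT2 and DESeq2 were used. Their roles, the annotation and the read length are not given in the sources used here. The series text states that raw data of 1 sample were lost, and its column was kept. No batch other than 1 shared label is given.

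Members and gene lists were chosen with earlier results of these data known. Counts were summed per group, with 3 counts as the floor. The interval of a log2 ratio was the exact conditional binomial (Clopper-Pearson) interval, and those of CPM and of shares of cells were exact Poisson and exact binomial. Genes that reached 5 CPM in one or both groups were compared, and 2-fold was a rule of size, not a test. Named genes were the 5 members, up to 4 per list and comparison at least 2-fold apart that reached 20 CPM, and the 3 most like each member. The closest 2 libraries of a group differed by 59.9 in chi-square per degree of freedom, so none was a copy. Sequences and lengths came from GENCODE M21 (GRCm38, the assembly that mm10 names). Calculations were tested on simulated data. Python 3.11.15, numpy 2.4.6, pandas 2.3.3, scipy 1.17.1, Biopython 1.88, matplotlib 3.10.9 and R 4.3.3 with edgeR 4.0.16 and DESeq2 1.42.0 (for scaling factors of the group sums alone) were used.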

Additional observations from a re-analysis of the deposited data

Results flagged for a closer look

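The 18 pathway genes checked were the members and list genes named for being at least 2-fold apart after the drug. For 6 of them, the log2 ratios of doxorubicin over control had opposite signs in oocytes and in granulosa libraries, and each sign held whichever single cell was left out. The same held for 993 of 3206 genes (30.97%) at least 2-fold apart in either cell type with at least 20 CPM, so 6 of 18 is no result about the pathway. The difference between the cell types was not tested, and the oocyte ratio of 5 of the 6 was small. For Map2k7 the ratio was -0.23 in oocytes and 2.71 in granulosa. Map3k6 had -0.18 and 3.34, Arrb2 had -0.10 and 4.31, Mapk14 had -0.52 and 1.72, and Map2k1 had -0.27 and 1.03. Dusp1 had the other order, 1.99 in oocytes and -1.10 in granulosa. The summed oocyte markers had a median of 9293 CPM in doxorubicin granulosa and of 1464 CPM in its control, and their part in these ratios was not tested.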

How the results depend on the processing

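No paired analysis was possible because no result comes from a test and the numbers shared by the groups only count cells. In oocytes, 1 member in place of 0 was at least 2-fold apart after the drug (Mapk8) when only cells with little granulosa and stroma marker signal were kept. Between controls, in place of 1 member there were 3 by cell medians, 0 without granulosa libraries whose oocyte markers were higher, 2 without each gene's top cell, 2 with granulosa markers above stroma markers, and 1 to 2 with 1 cell left out. The Mapk8 ratio in granulosa, 1.06, was -2.60 by medians, -1.95 with own markers higher, -0.32 without top cells, -5.09 with granulosa markers above both other lists (4 and 10 libraries), and -0.78 to 1.51 with 1 cell left out. The Mapk9 share was, by median length, length of all exons, no length and the median of cells, 69.1%, 84.0%, 76.0% and 87.3% in control oocytes, and 62.8%, 81.6%, 72.8% and 84.5% after the drug. In control granulosa it was 58.4%, 79.4%, 69.9% and 75.2%, and 80.3% with own markers higher. In doxorubicin granulosa it was 47.4%, 82.3%, 73.4% and 86.5%, and 94.6% with own markers higher. With 1 cell left out it ran from 80.7% to 84.4%, 78.1% to 80.9%, 57.6% to 80.8% and 71.0% to 91.0%. Genes 2-fold apart in oocytes, 973, were 2501 at a minimum of 1 CPM, 314 at 20 CPM and 7764 with none. Those in granulosa, 4951, were 2991 at 20 CPM and 10076 with none, and between controls 15260 with none in place of 7458. Scaling by TMM or DESeq2 factors moved no member across 2-fold. Subsets by marker sums were chosen after seeing the data. That the animal of each cell is not known is a limit, since all spread here is between cells of unknown source.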
